A study of [Candida] boidinii with 12 samples.

Results

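The genes described here are 49 transcripts of the methylotrophic yeast Candida boidinii whose level in wild type was at least 8-fold lower in methanol medium than in glucose medium. They were taken from 5711 rows with an identifier beginning with CB, of which 5034 had a mean count of at least 50 reads over the 12 libraries and could enter the choice. Read counts scaled to the library total (CPM) were computed, and W is the log2 ratio of mean CPM + 1 between methanol and glucose in wild type, minus its median over the 5034 rows. The 49 genes have W at or below -3 and make up 0.973% of the rows that could enter. The genes were thus chosen by the wild-type counts, so the wild-type values below describe the choice and are not tested. The files do not pair the identifiers with gene names, and the genes are given by identifier, without position or function.

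RNA was sequenced from wild type, strain CICC#33029, and from LA001-14, an engineered L-lactic acid-producing strain derived from it. Both strains were sampled at 6 h, either in YPD with glucose or in YPM with methanol at 2% (w/v), and each of the 4 groups has 3 libraries. The engineered strain holds a lactate dehydrogenase cassette, PENO1-BtL-LDH-TTEF2, and a kanamycin resistance cassette, PTDH3-KanR-TTEF2, both at random positions in the wild-type chromosomes, per the labels. It is a single engineered strain, so effects of the cassettes, of their positions and of its other history cannot be told apart. Total counts per library lay between 8045977 and 14107813. LDH, the introduced gene, stood in LA001-14 between 7382 and 8395 CPM on glucose and between 1915 and 2056 CPM on methanol. It had 1 read over the 6 wild-type libraries. Every replicate pair differed by more than counting noise, with a chi-square per degree of freedom between 4.03 and 32.3. The labels call the replicates biological without saying that they came from separate cultures, so p-values speak only of the spread among libraries.

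Methylotrophic yeasts oxidise methanol in peroxisomes through alcohol oxidase and pass the formaldehyde on to assimilation or to oxidation. Glucose is taken up by hexose transporters and broken down through glycolysis, and in yeasts the carbon source sets the expression of large groups of transporter and central carbon genes. Which of these functions the 49 genes hold is not known from the files. Levels here are relative to all reads of a library, and RNA per cell was not measured.

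In wild type the 49 genes went from 4.18% ± 0.107 of all counts on glucose to 0.233% ± 0.0074 on methanol (SD, n = 3 each). In the 3 glucose libraries the share lay between 4.08% and 4.29%, and in the 3 methanol libraries between 0.227% and 0.242%. In LA001-14 the same genes held 2.93% ± 0.036 on glucose and 2.86% ± 0.037 on methanol, with libraries at 2.90% to 2.97% and at 2.82% to 2.89%. Within LA001-14 the genes moved in opposite directions. CB2566.t1 and CB0100.t1 together went from 0.690% ± 0.031 to 1.81% ± 0.017 of LA001-14 counts, while the other 47 genes went from 2.24% ± 0.024 to 1.05% ± 0.022. On methanol these 2 genes held more of the LA001-14 counts than the other 47 together. In wild type both parts were lower on methanol, the 47 genes at 3.38% ± 0.068 on glucose and 0.224% ± 0.0067 on methanol, and the pair at 0.801% ± 0.041 and 0.0095% ± 0.0011. The pair was singled out after its values were seen.

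**Figure D1:**
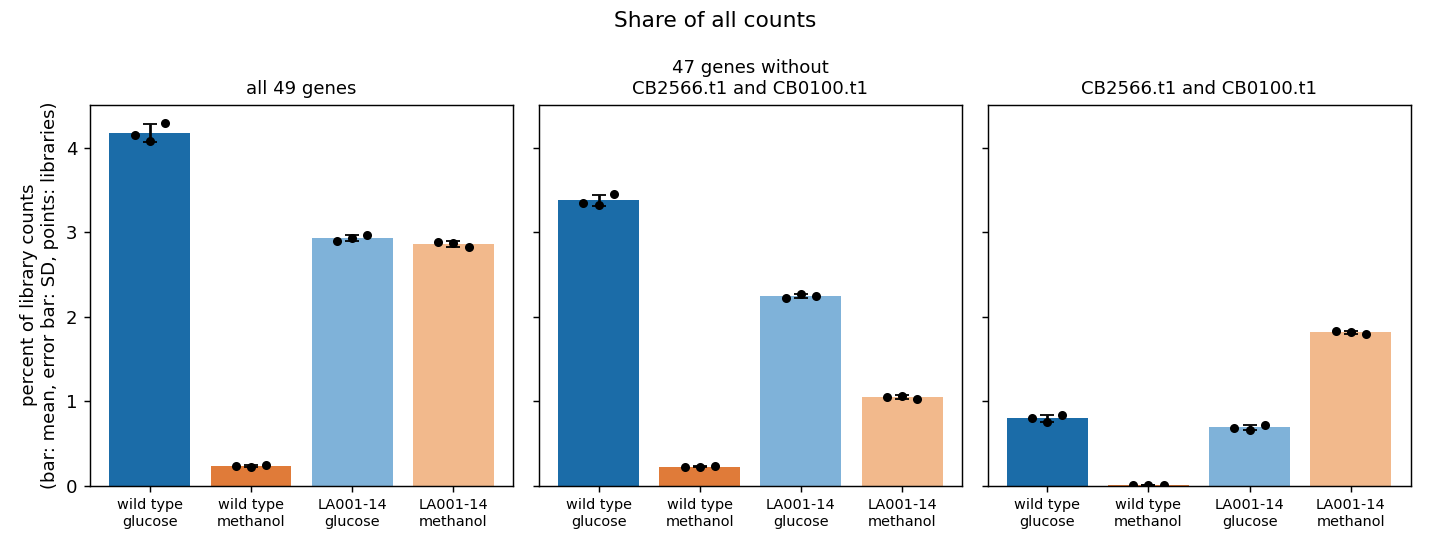
Percent of each library's counts held by all 49 genes, by the 47 genes without CB2566.t1 and CB0100.t1, and by that pair, in the 4 groups. Bars are means, error bars SDs and points the 3 libraries. The total for LA001-14 is 2.93% on glucose and 2.86% on methanol, while the pair rises from 0.690% to 1.81%.

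The fall in wild type covered genes of very different abundance. W ran from -6.68 to -3.02 with a median of -3.87, and was at or below -4 for 17 genes and at or below -5 for 9. The 3 methanol libraries lay below the 3 glucose libraries for each of the 49, and for 41.1% of the 5034 rows, from which nothing is read because these libraries chose the genes. On glucose in wild type the authors' FPKM, a level per length, ran from 4.07 to 5391 with a median of 118, against a median of 34.1 over the 5034 rows. On methanol it ran from 0 to 519 with a median of 5.57, against 33.6 over the same rows. Of the 49 genes, 35 were above the median row on glucose and 14 on methanol. In LA001-14 the median FPKM of the 49 was 56.5 on glucose and 18.7 on methanol, against 40.5 and 39.3 over the 5034 rows.

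**Figure D2:**
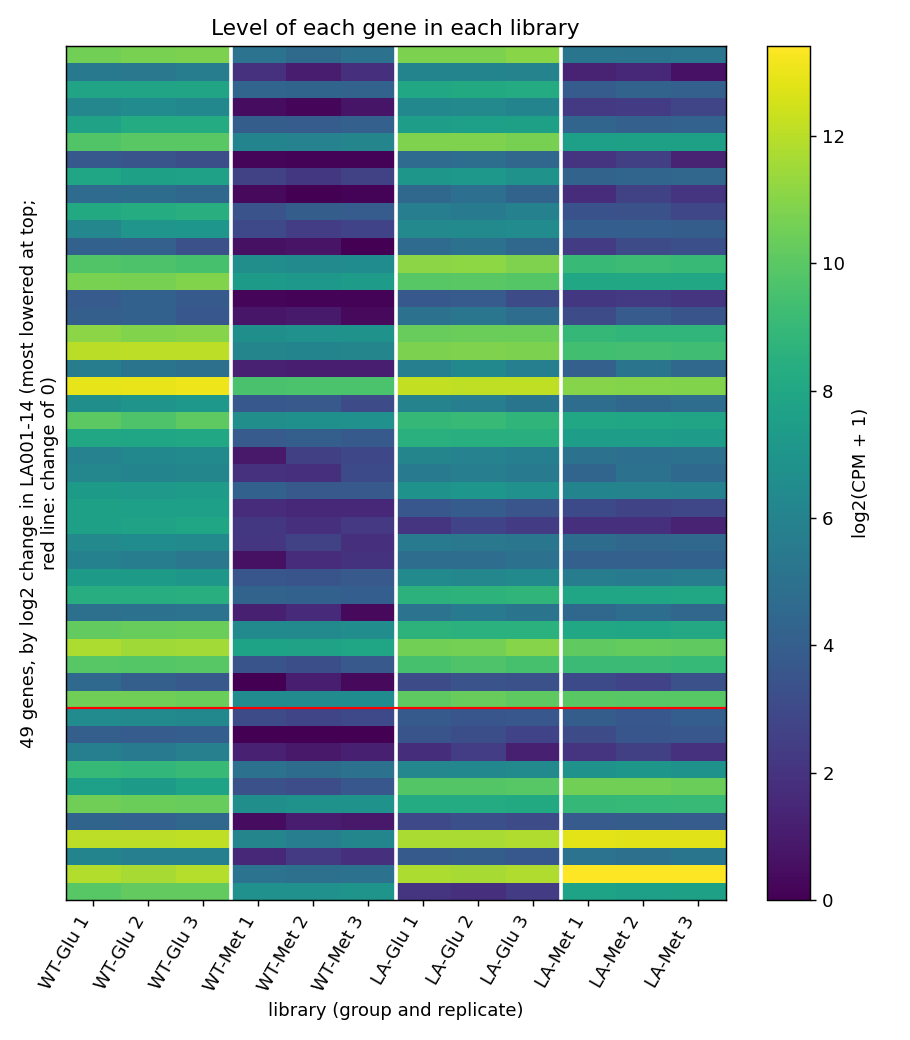
Level of each of the 49 genes (lines of the map) in each of the 12 libraries (columns) as log2(CPM + 1), ordered by the log2 change of LA001-14 on methanol with the most lowered gene at the top. The red line marks a change of 0. The wild-type methanol columns are darker than the wild-type glucose columns for every gene. The order is by change and not by level, so the LA001-14 methanol columns show no steady run of brightness from top to bottom.

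CB4589.t1 (coding length 1509 bases) was the most abundant of the 49 on glucose, with 5391 ± 229 FPKM in wild type. Its level was 7866, 8015 and 8525 CPM in the wild-type glucose libraries and 769, 784 and 797 CPM in the methanol libraries. LA001-14 levels were 4634, 4477 and 4549 CPM on glucose and 1990.5, 1931 and 1864 CPM with methanol. The gene was thus lower on methanol in all libraries of both strains, and it fell in LA001-14 (log2 change -1.18, SE 0.065, edgeR adjusted p = 2.37e-11). CB0100.t1 (1482 bases) was the next most abundant, with 2950.4 ± 93.4 FPKM in wild type on glucose.

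CB2566.t1 (1647 bases) and CB2853.t1 (2013 bases) had the lowest W, -6.68 and -6.31, and went different ways in LA001-14. CB2566.t1 stood at 3788, 3240.2 and 3881 CPM in wild type on glucose and at 33.8, 29.5 and 32.4 CPM with methanol. Its LA001-14 values were 3447, 3244 and 3600.4 CPM on glucose and rose to 10814, 10919 and 10665 CPM with methanol (log2 change 1.72, SE 0.054, edgeR adjusted p = 4.71e-14). The glucose libraries of the strains overlapped, and the methanol libraries stood far apart. By FPKM CB2566.t1 ranked 101 of the 5034 rows in wild type on glucose and 3334 on methanol, and 95 and 11 in LA001-14. CB2853.t1 stood at 969, 956 and 986 CPM on glucose and at 10.1, 8.24 and 12.6 CPM with methanol in wild type. Its LA001-14 levels were 737, 851 and 718 CPM on glucose and 563, 573 and 516 CPM with methanol, so the libraries did not overlap but the fall there was small (log2 change -0.42, SE 0.099, adjusted p = 0.00039).

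Reads were few for a part of the genes on methanol in wild type. Summed over the 3 libraries, 16 of the 49 genes had at most 100 reads and 4 had at most 3, which limits how precisely their fall is known. CB5361.t1 had 462 reads on glucose and none on methanol, at least 161-fold lower against a limit of 3 reads over the group. CB0468.t1, CB1693.t1 and CB3957.t1 had 3 methanol reads each, and the ratios of glucose to methanol CPM over summed reads were 109 (95% exact interval 36.8 to 529), 151 (51.5 to 737) and 254 (86.5 to 1233). These intervals cover counting error only and describe values that the choice used, and the 3 genes were singled out after their values were seen. The addition of 1 CPM in W holds the values of such genes nearer to 0.

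At the threshold the choice was gradual. CB1562.t1 and CB1500.t1 lay just inside it with W of -3.02 and -3.12, and CB5318.t1 and CB2330.t1 just outside with -2.97 and -2.96. CB1562.t1 stood at 808 ± 73.9 CPM on glucose and 91.2 ± 6.37 CPM with methanol in wild type, and CB1500.t1 at 985 ± 126 and 104 ± 5.15 CPM. The rows just outside were low, at 17.3 ± 4.95 and 1.17 ± 0.472 CPM for CB5318.t1 and 18.01 ± 3.40 and 1.27 ± 0.541 CPM for CB2330.t1. With 5 CPM added in place of 1, 32 genes reached the threshold, all among the 49.

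The LA001-14 libraries did not enter W, and their comparison of methanol with glucose is the test available for these genes. The test was edgeR's quasi-likelihood fit over all 5466 rows tested, with Benjamini-Hochberg adjustment and a call at an adjusted p under 0.05. Of the 49 genes, 37 (75.5%) were lower on methanol in LA001-14, where 29.7% of all rows tested were lower. A further 8 (16.3%) were higher, where 34.7% of all rows were, and 4 (8.16%) were not called, where 35.5% were not. The fall was at least 2-fold for 20 genes (40.8%, background 11.3%) and at least 8-fold, the size asked of wild type, for 6 (12.2%, background 1.1%). The rise was at least 2-fold for 4 genes (8.16%, background 6.93%). The median log2 change of the 49 in LA001-14 was -0.89, with quartiles at -1.87 and -0.25, against 0.048 over all rows tested. The methanol libraries lay wholly below the glucose libraries for 37 genes and wholly above for 8, and they overlapped for 4. The shares of rows without overlap were 34.1% below and 32.5% above over all rows tested. The 5466 rows tested also hold rows with too few reads to enter the choice, which only 5034 rows could. These background shares were not recomputed on those 5034 rows or on rows of similar count. How much of the gap in called and not-called shares goes with read depth was therefore not tested.

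On the scale of W, with L as the same log2 ratio in LA001-14, the fall was smaller or turned round in LA001-14 for 46 of the 49 genes, and the median difference between L and W was 2.83. The choice of genes on W favours this direction, and it was not tested. L was at or below -3, the threshold set for W, in 6 of the 49 genes and in 0.477% of the 5034 rows. The 3 exceptions, singled out after their values were seen, were CB0769.t1, CB0157.t1 and CB5418.t1. Across the 49 genes the correlation of W with L was r = 0.054 (Spearman's rho -0.044), and without CB1961.t1 it was -0.031. Over all 5034 rows it was r = 0.46. This is a description across genes over the narrow range of W that the choice leaves, and W and L share no library.

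**Figure D3:**
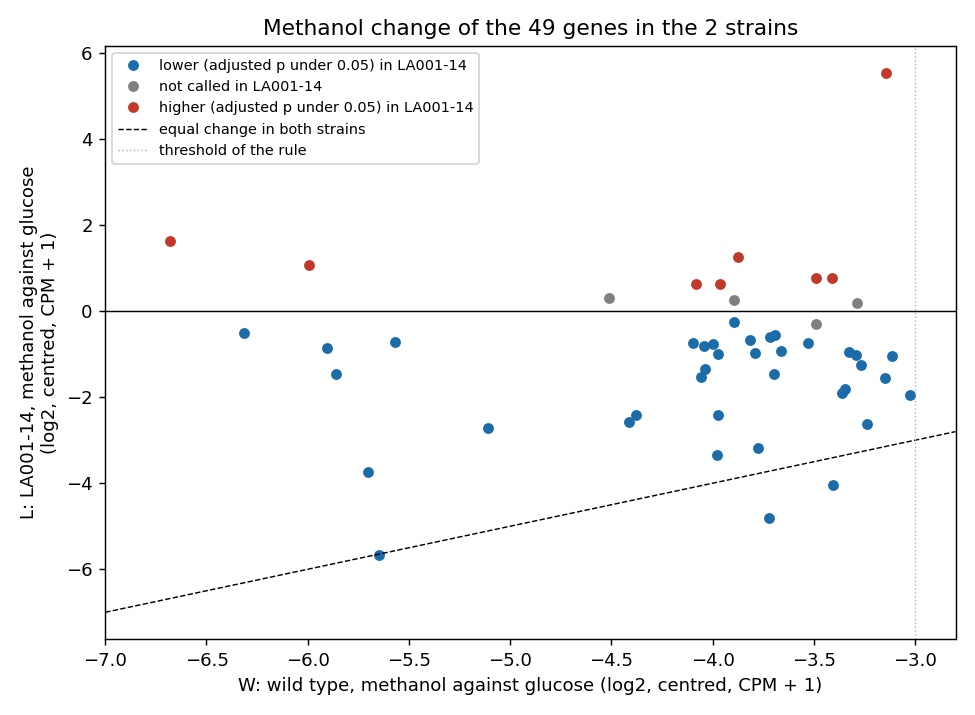
W, the change of wild type on methanol, against L, the change of LA001-14 on the same centred log2 scale, for the 49 genes. Colours give the edgeR call in LA001-14, with 37 genes lower, 8 higher and 4 not called. The 3 genes at or below the dashed line of equal change are CB0769.t1, CB0157.t1 and CB5418.t1, and CB1961.t1 stands at the top.

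The 6 genes that fell at least 8-fold in LA001-14 were all within 2-fold of wild type on glucose. CB0769.t1 (741 bases) showed the largest fall in LA001-14. Its level was 1525, 1673 and 1742 CPM on glucose and 33.3, 24.3 and 30.9 CPM with methanol in wild type. In LA001-14 it was 1750.5, 1744 and 2058 CPM on glucose and 36.4, 34.3 and 37.7 CPM with methanol, a fall of 48.9-fold (log2 change -5.61, SE 0.083, edgeR adjusted p = 3.33e-20). The carbon sources were separate in both strains by a similar distance. CB0157.t1 (891 bases) was much less abundant, at 41.4, 39.8 and 48.7 CPM on glucose and 2.71, 1.03 and 2.59 CPM with methanol in wild type. The engineered strain had 64.8, 66.0 and 62.5 CPM on glucose and 1.56, 1.95 and 0.599 CPM with methanol (log2 change -5.43, SE 0.44, adjusted p = 2.36e-14). The last of these libraries rests on 5 reads.

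Strain differences on each carbon source are given as log2 ratios of mean CPM + 1, LA001-14 against wild type, minus the median over the 5034 rows. Those medians were 0.22 on glucose and 0.27 on methanol. They are the log2 amount by which CPM + 1 of a typical gene was higher in LA001-14 before centring. Both comparisons use wild-type libraries that W used, and neither was tested. Before centring, L minus W equals the methanol difference minus the glucose difference. A gene with low W and a small fall or a rise in LA001-14 must therefore lie below wild type on glucose, above it on methanol, or both. Strain differences of groups formed by the LA001-14 change are thus tied to the grouping, and nothing is read from their counts. On the glucose side the centred difference of the 6 genes lay between -0.76 and 0.62. Of the 5034 rows, 7.67% were at least 2-fold lower there in LA001-14 and 6.38% at least 2-fold higher. On methanol the difference of the 6 genes lay between -0.66 and 1.72. At least 2-fold higher in LA001-14 were 2 of the 6, where 8.38% of the rows were.

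These 6 genes also held the shortest coding sequences. Of the 49 genes, 5 were under 900 bases, at 666 to 891 bases, and all 5 were among the 6 that fell at least 8-fold in LA001-14. The sixth was CB0199.t1 (1662 bases), which went from 1735 ± 77.9 to 191 ± 3.78 CPM there. The shortest of the other 43 genes had 984 bases. Over all rows tested, 60 fell at least 8-fold in LA001-14 and 11 of them (18.3%) were under 900 bases, while 25.1% of the 5466 rows tested were. The limit of 900 bases was chosen after the values were seen.

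A group of 14 genes fell between 2-fold and 8-fold in LA001-14, with log2 changes from -2.88 to -1.18. CB4589.t1 and CB1562.t1 belong to it. CB1562.t1 (1653 bases) stood at 877, 817 and 729.7 CPM in wild type on glucose and 97.4, 84.7 and 91.4 CPM with methanol. The LA001-14 libraries gave 2190.3, 2257 and 1839.7 CPM on glucose and 522, 591 and 541 CPM with methanol (log2 change -1.87, SE 0.12, edgeR adjusted p = 6.43e-15). It was higher in LA001-14 than in wild type on both carbon sources and fell in both strains. Of these 14 genes, 9 were within 2-fold of wild type on glucose. In LA001-14 4 were at least 2-fold lower on glucose and 1 was at least 2-fold higher. There 7.67% of the 5034 rows were at least 2-fold lower in LA001-14 and 6.38% at least 2-fold higher. On methanol 11 of the 14 were at least 2-fold higher in LA001-14, where 8.38% of the rows were. These comparisons hold wild-type libraries that the choice used.

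A further 17 genes fell by under 2-fold in LA001-14 on the edgeR scale, with log2 changes from -0.98 to -0.17 and edgeR adjusted p-values up to 0.0493. In this group 8 genes were at least 2-fold below wild type on glucose in LA001-14, where 7.67% of the 5034 rows were. On methanol 14 were at least 2-fold higher, where 8.38% of the rows were. The wild-type side of both was used by the choice. CB1500.t1 (1710 bases) went from 492, 521 and 442 CPM on glucose to 249.5, 235 and 231 CPM with methanol in LA001-14 (log2 change -0.96, SE 0.11, edgeR adjusted p = 4.81e-09). In wild type it stood at 1046, 839.8 and 1069.9 CPM on glucose and at 98.5, 107 and 108 CPM with methanol. CB1500.t1 in LA001-14 thus lay between the levels of wild type on both carbon sources. With the 2 other scalings its log2 change in LA001-14 was -1.01 and -1.02, past 2-fold, so the border at 2-fold depends on the scaling.

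CB0921.t1 (1080 bases) was low in LA001-14 whatever the carbon source. In wild type it stood at 199.6, 209 and 235 CPM on glucose and 3.45, 2.54 and 3.67 CPM with methanol. In LA001-14 it stood at 3.10, 5.41 and 4.23 CPM on glucose and 2.48, 2.60 and 1.56 CPM with methanol. The LA001-14 glucose level was near the wild-type methanol level, with a centred difference from wild type of -5.58 on glucose and -0.66 on methanol. The further fall on methanol in LA001-14 passed the test (log2 change -0.85, SE 0.30, edgeR adjusted p = 0.0054). It did not pass without LA001-14 on glucose replicate 2, at -0.62 and adjusted p = 0.068.

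The 8 genes that rose on methanol in LA001-14 held 0.823% ± 0.032 of its glucose counts and 2.05% ± 0.022 of its methanol counts (n = 3 each). Their log2 changes ran from 0.71 to 6.02. In wild type the same genes held 1.12% ± 0.041 and 0.036% ± 0.0019. On glucose 5 of the 8 lay at least 2-fold below wild type in LA001-14, where 7.67% of the 5034 rows did. On methanol 7 were at least 2-fold higher, where 8.38% of the rows were. A rise in LA001-14 with W at or below -3 requires differences of this kind, so nothing is read from these counts. The group holds both CB2566.t1 and CB0100.t1, which were within 2-fold of wild type on glucose, and genes that started low.

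CB0100.t1 stood at 4254, 4339 and 4525 CPM on glucose and 66.8, 52.0 and 69.1 CPM with methanol in wild type. Its LA001-14 values were 3376, 3397 and 3641 CPM on glucose and 7497, 7214 and 7305 CPM with methanol (log2 change 1.14, SE 0.049, edgeR adjusted p = 2.34e-10). Like CB2566.t1, it was abundant in every group except wild type on methanol. CB2564.t1 (1689 bases) stood at 190.4, 155 and 223 CPM on glucose and 8.88, 8.00 and 11.4 CPM with methanol in wild type. The engineered strain had 917, 917 and 958 CPM on glucose and 1501, 1510.2 and 1368 CPM with methanol (log2 change 0.71, SE 0.062, adjusted p = 8.97e-06). It was the gene with the highest centred difference on glucose among the 49, at 2.07, and on methanol its difference of 6.86 was second to the 8.09 of CB2566.t1.

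CB1961.t1 (1116 bases) showed the largest rise in LA001-14 from the lowest relative level on glucose. In wild type it stood at 962, 1171 and 1163 CPM on glucose and 109.9, 111 and 122 CPM with methanol. The LA001-14 libraries gave 2.99, 2.61 and 4.23 CPM on glucose and 216, 187 and 198 CPM with methanol, a rise of 64.9-fold (log2 change 6.02, SE 0.20, edgeR adjusted p = 6.45e-18). On methanol the strains were close, with a centred difference of 0.53, and on glucose LA001-14 was lower by a centred difference of -8.22. The carbon source at which the gene was high was thus opposite in the strains.

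**Figure D4:**
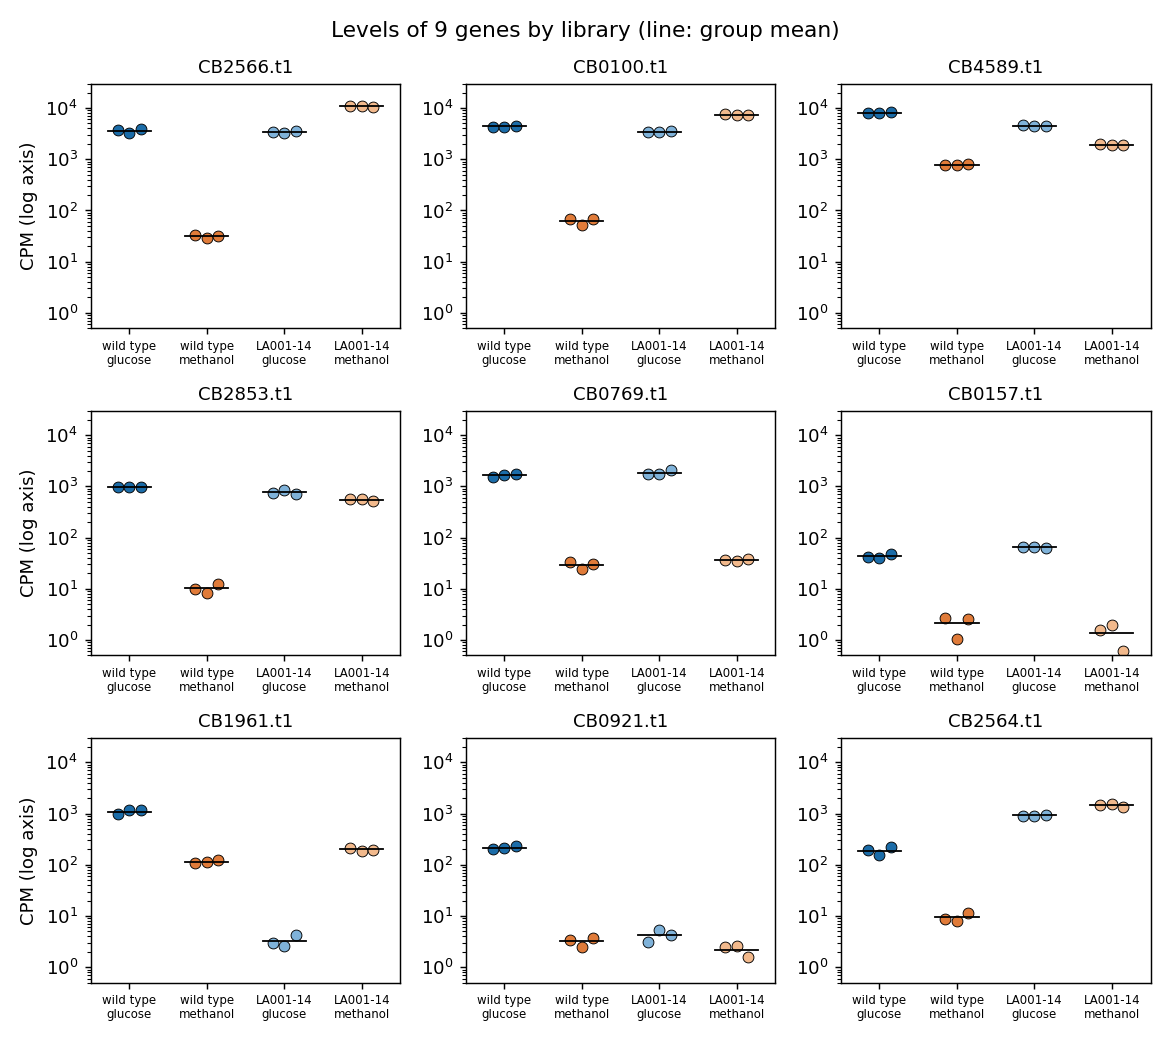
CPM on a log axis in each of the 12 libraries for 9 of the genes, with a line at each group mean. CB2566.t1 and CB0100.t1 are far lower in wild type on methanol than in any other group. CB0769.t1 and CB0157.t1 are far lower on methanol than on glucose in both strains, and CB1961.t1 is lowest in LA001-14 on glucose.

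The 4 genes not called in LA001-14 were CB0637.t1, CB5361.t1, CB0636.t1 and CB1869.t1, the last 2 named after their values were seen. Each was at least 2-fold lower in LA001-14 than in wild type on glucose, where 7.67% of the 5034 rows were. The wild-type side of this was used by the choice, and nothing is read from it. CB0637.t1 stood at 87.8, 80.8 and 76.4 CPM on glucose and 7.77, 5.86 and 6.89 CPM with methanol in wild type. LA001-14 levels were 13.1, 11.1 and 11.4 CPM on glucose and 14.5, 11.7 and 15.2 CPM with methanol, which overlap (log2 change 0.29, SE 0.16, edgeR adjusted p = 0.10). Without LA001-14 on methanol replicate 2 its change was 0.41 with an adjusted p of 0.031. CB5361.t1 stood at 15.7, 14.2 and 15.3 CPM in wild type on glucose. In LA001-14 it stood at 10.2, 8.50 and 5.59 CPM on glucose and 7.58, 11.0 and 11.4 CPM with methanol (log2 change 0.33, SE 0.32, adjusted p = 0.25). A p above the threshold does not show that these levels were equal.

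The centred strain differences of the 49 genes are given as a description. On methanol 44 genes had a centred difference above 0, and 36 (73.5%) were at least 2-fold higher in LA001-14, where 8.38% of the 5034 rows were. None was at least 2-fold lower, where 9.97% of the rows were. At least 8-fold higher were 10 genes (20.4%, background 0.298%). The median centred difference on methanol was 1.80, with quartiles at 1.00 and 2.81. On glucose 21 genes (42.9%) were at least 2-fold lower in LA001-14, where 7.67% of the rows were, and 2 (4.08%) at least 2-fold higher, where 6.38% were. The median centred difference on glucose was -0.76, with quartiles at -1.44 and -0.049. Genes chosen for high wild-type glucose and low wild-type methanol levels are favoured to lie below wild type on glucose and above it on methanol, and nothing is read from these shares.

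The differences on both carbon sources combined as follows, again on libraries that the choice used. Within 2-fold of wild type on glucose and at least 2-fold higher on methanol were 21 genes (42.9%, against 6.58% of the 5034 rows), among them CB2566.t1, CB0100.t1 and CB2853.t1. Another 13 (26.5%, against 0.497%) were at least 2-fold lower on glucose and at least 2-fold higher on methanol. At least 2-fold lower on glucose but not 2-fold higher on methanol were 8 genes (16.3%, against 7.17%), among them CB1961.t1, CB0921.t1 and CB0637.t1. There were 5 genes (10.2%, against 72.5%) within 2-fold on both carbon sources. CB1562.t1 and CB2564.t1 were at least 2-fold higher on both (4.08%, against 1.31%). The 5 genes below 0 on methanol, named after their values were seen, were CB0157.t1, CB0587.t1, CB0921.t1, CB5418.t1 and CB5459.t1.

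**Figure D5:**
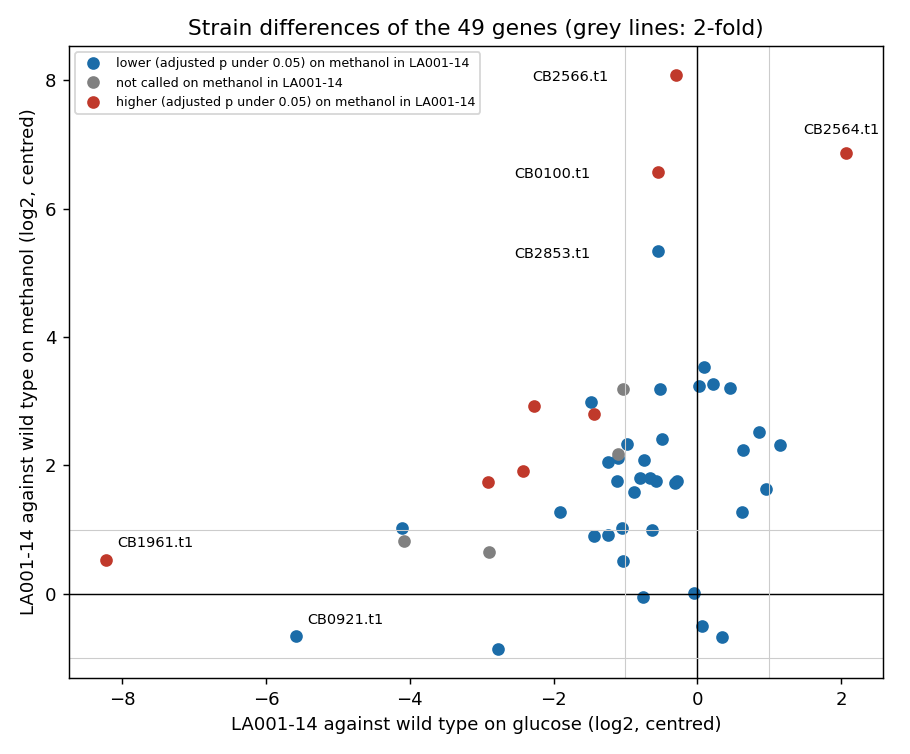
Centred log2 difference of LA001-14 from wild type on glucose (horizontal) and on methanol (vertical) for the 49 genes, coloured by the edgeR call for methanol in LA001-14. Most points lie above 0 on the vertical axis, 36 of them by 2-fold or more, and CB1961.t1 lies far to the left at -8.22.

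Coding length, which the choice did not use directly, had a median of 1662 bases among the 49 genes and 1467 among the 5034 rows. The range was 666 to 5058 bases, with quartiles at 1380 and 2013 against 906 and 2329.5 over all rows. No gene of the 49 was under 600 bases, where 11.7% of the 5034 rows were. Between 1600 and 1800 bases lay 12 of the 49 (24.5%), where 7.45% of the rows lay. This window was chosen after the lengths were seen. CB2566.t1, CB2564.t1, CB1562.t1 and CB1500.t1 lie in it, and the genes in it differed in their LA001-14 response from a fall to a rise.

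Some of the genes have consecutive identifiers. Of the 49, 11 form 6 pairs of consecutive numbers, with CB1499.t1 in 2 of the pairs. How often rows in general would do so was not tested. CB1499.t1 and CB1500.t1 also have the same coding length of 1710 bases, so reads may have been split between near-identical sequences, which was not tested. Their levels were unequal, and W was -5.86 for CB1499.t1 and -3.12 for CB1500.t1. Whether the numbering follows position on the chromosomes is not given in the sources used here.

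Replicate spread differed between the groups. The SD of log2(CPM + 1) over the 3 replicates had a median over the 49 genes of 0.12 in wild type on glucose, 0.16 in wild type on methanol, 0.13 in LA001-14 on glucose and 0.093 in LA001-14 on methanol. Over the 5034 rows the medians were 0.16, 0.098, 0.13 and 0.10. The wild-type methanol libraries, in which the 49 genes had the fewest reads, were the group in which their spread most exceeded that of all rows. The choice took genes that were low in these libraries, so nothing is read from this.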

How the data were processed

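Per the file headers, every file covers 1 library and lists 5712 coding sequences with their length, raw reads and FPKM. Counts are whole numbers of reads that the authors deposited unscaled. The FPKM values made by the authors equal the count scaled by coding length and column sum, to within 2.4e-06 percent. The submitters' processing notes name Bowtie2 2.5.4. The counting program, genome build, annotation and strand setting were not given in the sources used here. Coding lengths were used as the deposited files give them.

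The 49 genes and the comparisons were chosen with earlier results of these data known. Rows were kept by filterByExpr, which left 5466 including all 49 genes, scaled by TMM and fitted with edgeR 4.0.16 (R 4.3.3), with 1 mean per group over 12 libraries and robust glmQLFit. Only LA001-14 on methanol against glucose was tested. SEs use the spread of log2 CPM among replicates after adding 2 reads. CPM on library totals are given as levels. Alternatives were other scalings, DESeq2 1.42.0, no filter, LA001-14 libraries alone, a replicate block and each library left out.

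Genes are named by their place at an extreme: lowest W, highest wild-type glucose FPKM, largest called changes in LA001-14 each way, those not called with the highest mean CPM over the LA001-14 libraries, highest and lowest strain ratios, and the nearest to the threshold, 2 of each. Others are named where a count was 5 or fewer or a group was singled out.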

Additional observations from a re-analysis of the deposited data

Results flagged for a closer look

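For 8 of the 49 genes (16.3%) every LA001-14 methanol library lay above every LA001-14 glucose library, while every wild-type methanol library lay below every wild-type glucose library. Over all rows tested, 32.5% lay wholly above on methanol in LA001-14, and the wild-type direction was set by the choice of genes. The log2 changes in LA001-14 were 0.71 for CB0540.t1, 0.71 for CB2564.t1, 0.86 for CB0318.t1, 0.91 for CB3638.t1, 1.14 for CB0100.t1, 1.40 for CB2922.t1, 1.72 for CB2566.t1 and 6.02 for CB1961.t1. The difference between the strains was not tested for these genes, because its wild-type side chose them.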

How the results depend on the processing

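With 2 other scalings, DESeq2, no filter, the LA001-14 libraries alone or a replicate block, 36 or 37 of the 49 genes were lower in LA001-14, 8 higher and 6 lower by at least 8-fold, and their median log2 change lay between -0.96 and -0.88. Leaving out each LA001-14 library in turn gave 34 to 37 lower, 8 or 9 higher, 6 to 8 lower by 8-fold and medians from -0.97 to -0.83. The counts at 2-fold were not repeated under these alternatives. The share of counts held by the 49 genes lay between 2.92% and 2.95% on glucose and between 2.85% and 2.88% on methanol without each LA001-14 library, and at 2.96% and 2.87% with LDH left out of the totals. Of 156 alternative values for 13 named genes, 154 kept their direction and their side of the threshold, 1 was no longer past it (CB0921.t1), 1 newly past it (CB0637.t1) and 0 turned round.

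The choice itself gave 32 genes with 5 CPM added in place of 1, by its construction fewer genes of low level. It gave 45 to 56 with 0.5 CPM, other count minimums, TMM scaling or no centring, and 49 to 53 without each wild-type library. Whether replicate numbers pair the libraries is not settled, and it was examined in LA001-14 alone. Libraries of the same number correlated in their deviations from the group means at 0.19, 0.12 and 0.0019. Glucose libraries 1 and 2 correlated best with the methanol library of their own number, and library 3 did not. Deviations from a mean of 3 libraries are tied to each other, so they cannot decide it. With the replicate block, 36 genes were lower, 8 higher and 6 lower by 8-fold, with a median of -0.89. Depth limits the wild-type methanol values, where 16 genes rest on at most 100 reads.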
